A study of Rattus norvegicus with 48 samples.

Results

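The motile cilia axoneme genes were followed in rat lung after inhalation of dust and diesel particles. They were taken by name, as every gene called Dnah, Dnai, Cfap, Rsph, Drc or Tekt plus a number, with Foxj1, Tppp3, Ccdc39 and Ccdc40 added, where the mean level over the 48 libraries reached 0.5 CPM, that is counts scaled to a common library total. Of 32285 gene identifiers, 42 matched by name and 39 passed that level, standing for 38 gene names because Cfap46 has 2 identifiers. Dnah17, at 0.777 CPM, lay just inside the limit and Dnah8, at 0.276 CPM, just outside it. Foxj1 and Ccdc40 are not analysed here.

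The axoneme is the microtubule scaffold of a cilium. In motile cilia, outer and inner dynein arms slide the doublet microtubules past each other, while radial spokes, the nexin-dynein regulatory complex and the central apparatus turn that sliding into a beat. In the lung these structures belong to the multiciliated cells of the airways, which move mucus and trapped particles out of the lung.

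The 48 animals were male Sprague-Dawley rats, housed in pairs. Exposed rats breathed fracking sand dust at 30 mg/m3 together with diesel particles at 1 mg/m3, in a whole-body chamber for 6 hours on each of 4 days, and control rats breathed filtered air. Lungs were taken 1, 7 or 27 days after exposure, with 8 exposed and 8 air animals at each time, and polyadenylated RNA from a piece of lung was sequenced. A piece of lung holds airway and alveolar tissue in unknown proportion, and no label gives the part of the lung that was taken.

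Library totals ran from 9445675 to 14400317 counts, with a median of 12004516.5. The libraries of each group are numbered 1 to 8 by animal number. Of 168 library pairs within groups, 4 differed little beyond counting noise, at 1.447 to 1.672 times its size against at least 2.41 for the other pairs. These were libraries 1 and 4 of exposed day 1, 3 and 6 of exposed day 7, 1 and 4 of air day 7, and 3 and 6 of air day 27. In means ± SD such a pair counts once, so that n is 7 in those groups. Alveolar type 2 cell markers summed to 17260 to 26690 CPM in every library, as the lung label requires, while 9 of 10 male germ cell markers, checked because sperm share the axoneme, had means of 0.049 CPM or less.

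Few of the axoneme genes differed between exposed and air lungs. At day 1, 0 of 38 tested members had an adjusted p under 0.05, against 0.0279% of all 14314 genes tested, and at day 7 it was 0 of 39 members, against 0% of all genes. At day 27, 1 of 38 members passed, Tppp3, which was lower in exposed lungs, against 5.52% of all genes called and 3.33% called lower. At an unadjusted p under 0.05, edgeR gave 3 members higher and 3 lower at day 1, 0 at day 7, and Tppp3 alone at day 27. Over all genes those shares were 4.61% higher and 4.06% lower at day 1, 4.32% and 4.15% at day 7, and 12.4% and 14.3% at day 27. In whole lung tissue, fewer ciliated cells, a smaller share of airway and less of these transcripts per cell cannot be told apart.

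The median log2 fold change of the members, exposed over air, was 0.02 at day 1, 0.02 at day 7 and -0.07 at day 27, beside 0.0019, -0.0008 and -0.0081 over all genes tested. At day 1, 22 members lay above 0 and 16 below, beside 50.9% and 49.1% of all genes. At day 7 it was 22 and 17, beside 49.7% and 50.3%, and at day 27 it was 12 and 26, beside 48% and 52%. With each library left out in turn the median ran from -0.05 to 0.06 at day 1, from -0.07 to 0.06 at day 7 and from -0.12 to 0.02 at day 27, so its sign was not fixed at any day. Exposed day 27 libraries 3 and 7 had low levels of nearly all members, and without both, 27 members lay above 0 and 11 below at day 27, with a median of 0.11. That fit, chosen after seeing the data, called 0 of 14313 genes, with 2589 at an unadjusted p under 0.05, 3 of them members, Dnah9 and Rsph4a higher and Tppp3 lower in exposed lungs. The exposed and air ranges overlapped for every tested member at each day. Over all genes, 0% lay wholly higher and 0.0559% wholly lower in exposed lungs at day 1, 0.014% and 0.0281% at day 7, and 0.268% and 0.218% at day 27. The median SE of a member's log2 fold change was 0.14 at day 1, 0.14 at day 7 and 0.20 at day 27. Differences smaller than that were not resolved, and differences of several SE could also fail to pass. At day 1 Dnah5, at 0.90 with an SE of 0.19, had an adjusted p of 0.166 (edgeR).

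**Figure D1:**
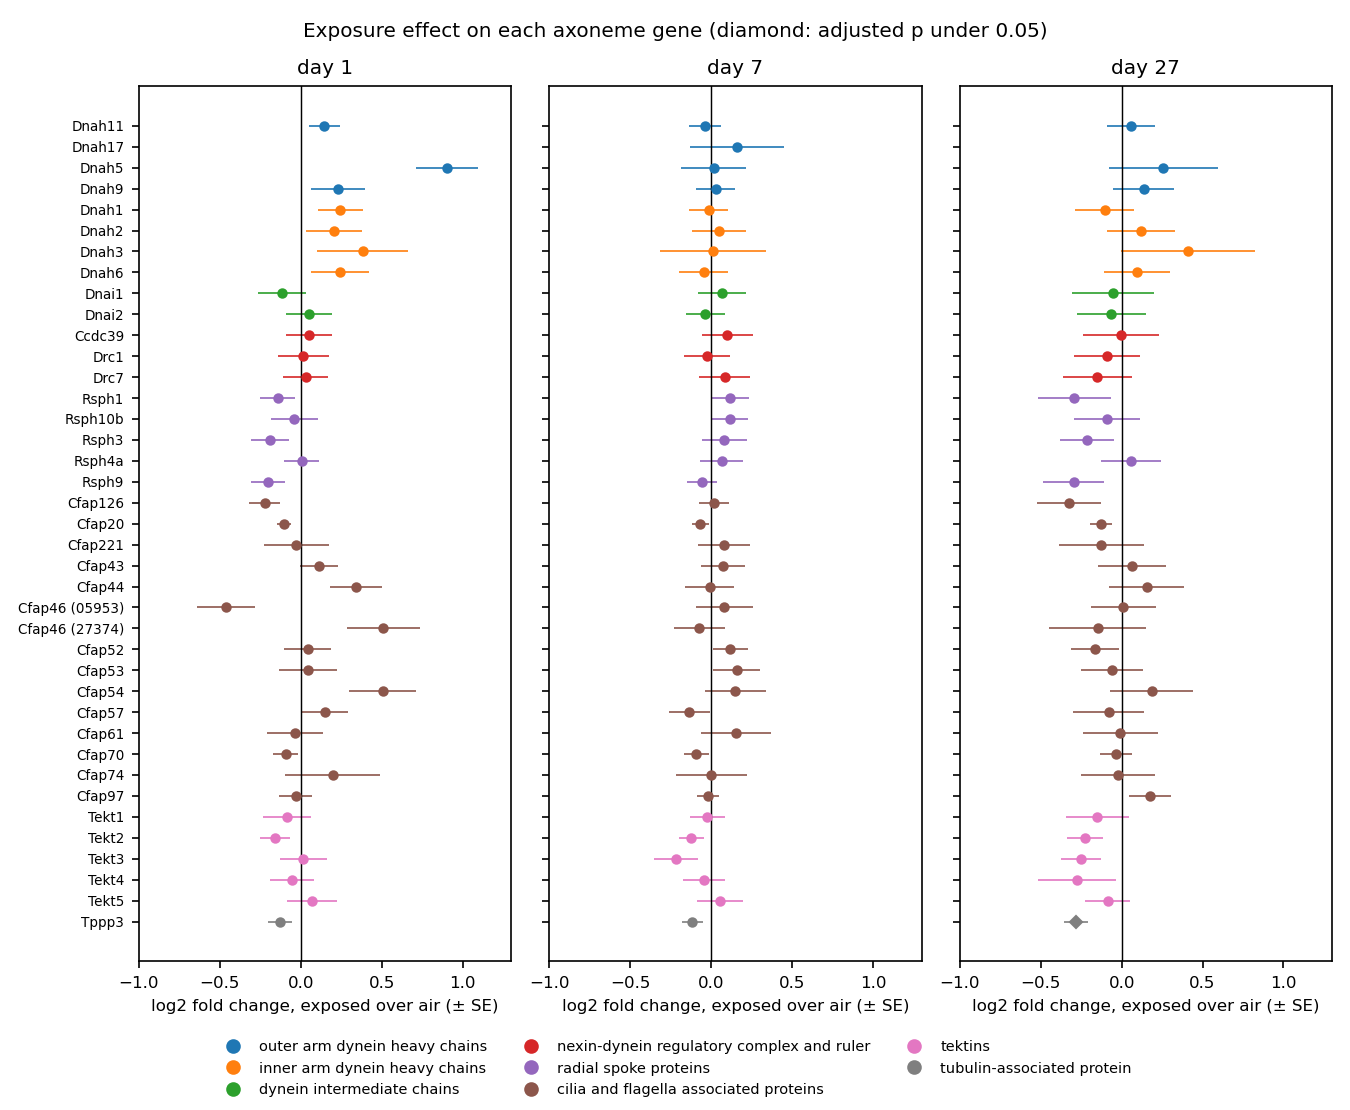
Log2 fold change, exposed over air, of each axoneme gene at days 1, 7 and 27 (x axis, with standard error bars), with the genes down the page grouped and coloured by role; a diamond marks an adjusted p under 0.05. Only Tppp3 at day 27 carries a diamond, and at day 1 all 7 tested dynein heavy chains lie right of 0.

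The largest fold change of any member tested at any of the 3 days was that of Dnah5, an outer arm heavy chain. The outer arm heavy chains are the motor subunits that set the speed of the beat. Dnah5, whose loss in humans causes primary ciliary dyskinesia, ran from 5.41 through a median of 11.1 to 14.8 CPM in exposed day 1 lungs, against 3.37, 5.51 and 7.60 CPM in air day 1 lungs. Of the 8 exposed libraries, 7 lay above every air library, and library 8, at 5.41 CPM, fell inside the air range. The means were 10.7 ± 2.90 CPM in exposed lungs (SD, n = 7) and 5.75 ± 1.68 CPM in air lungs (SD, n = 8). The log2 fold change was 0.90 with an SE of 0.19, and the adjusted p of 0.166 did not pass (edgeR, quasi-likelihood). DESeq2 gave 0.90 and an adjusted p of 0.00468, and edgeR without exposed library 8 gave 1.00 and 0.0183. In the other 9 alternatives the adjusted p was 0.11 to 0.32, and without any one other library it was 0.137 to 0.349.

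At the later days the fold change of Dnah5 was smaller. It ran from 10.4 through 12.5 to 22.9 CPM in exposed day 7 lungs, against 6.41, 13.5 and 21.2 CPM in air day 7 lungs, with a log2 fold change of 0.02 (SE 0.20, adjusted p 0.994). At day 27 it ran from 4.11 through 6.59 to 9.75 CPM in exposed lungs, against 1.62, 3.53 and 12.1 CPM in air lungs, with a log2 fold change of 0.26 (SE 0.34, adjusted p 0.653). The exposure effect at day 7 minus that at day 1 was -0.89 with an SE of 0.36 on the log2 scale, and its adjusted p was 0.57.

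Dnah9 and Dnah11, further heavy chains of the outer arm, gave smaller fold changes. At day 1 Dnah9 ran from 18.3 through 31.2 to 43.5 CPM in exposed lungs, against 16.0, 26.3 and 35.7 CPM in air lungs, and Dnah11 had medians of 36.3 CPM in exposed and 32.9 CPM in air lungs. Their log2 fold changes were 0.23 (SE 0.17, adjusted p 0.736) and 0.15 (SE 0.10, adjusted p 0.709). Dnah17, an outer arm heavy chain of sperm in humans and mice, was too low to be tested at days 1 and 27 and had medians of 0.975 CPM in exposed and 0.798 CPM in air lungs at day 7.

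The inner arm heavy chains shape the waveform of the beat. At day 1 Dnah6 ran from 28.9 through 46.3 to 71.3 CPM in exposed lungs, against 25.3, 40.6 and 56.7 CPM in air lungs, a log2 fold change of 0.24 (SE 0.18, adjusted p 0.740). Dnah1 gave 0.25 (SE 0.14), Dnah2 0.21 (SE 0.17) and Dnah3 0.38 (SE 0.28) at day 1, all with adjusted p of 0.650 or more, and 7 of 8 exposed libraries lay above the air mean for each of these 4 genes. None of them passed the test. At day 7 the 4 log2 fold changes lay between -0.05 and 0.05, and at day 27 between -0.11 and 0.41.

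Read together, the heavy chains stood on the same side of 0 at day 1. All 7 tested lay above 0, with a median log2 fold change of 0.24, while the other 31 members split into 15 above and 16 below with a median of -0.03. Among these 31, Cfap54 and ENSRNOG00000027374 of Cfap46, at 0.51 each, and Cfap44, at 0.34, lay above the heavy chain median. Values of that size were therefore not confined to heavy chains. With 1 surrogate variable in the fit, 6 of the 7 heavy chains lay above 0 with a median of 0.02, and in the other 25 alternatives all did. At day 7, 5 of 8 heavy chains lay above 0, and at day 27, 6 of 7, with medians of 0.01 and 0.12, beside 17 and 6 of 31 other members. The mean log2 CPM of the 7 heavy chains minus that of the other 25 members that track the rest gives a balance for each library. It ran from 0.56 through 0.95 to 1.07 in exposed day 1 lungs, against 0.29, 0.64 and 0.75 in air day 1 lungs. At day 7 it ran from 0.84 through 1.02 to 1.28 in exposed lungs, against 0.78, 1.13 and 1.196 in air lungs, and at day 27 from 0.40 through 0.69 to 1.07 in exposed lungs, against -0.03, 0.39 and 1.007 in air lungs. The ranges overlapped at each day, and this balance was chosen after the values were seen, so it is given without a test. The air medians of days 1 and 7 differed more than the exposed and air medians did at day 1. These 7 heavy chains also varied together between libraries, at 0.91 between their inner and outer arm means, so they are not separate observations.

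The intermediate chains Dnai1 and Dnai2 anchor the outer arm motors, and neither passed the test at any day. At day 27 Dnai1 ran from 2.26 through 7.66 to 8.79 CPM in exposed lungs, against 3.14, 6.30 and 10.4 CPM in air lungs, and Dnai2 had medians of 10.1 CPM in exposed and 9.37 CPM in air lungs. Their log2 fold changes lay between -0.12 and 0.07 over the 3 days. Ccdc39, part of the molecular ruler that spaces the structures along the doublets, ran from 13.3 through 18.3 to 21.2 CPM in exposed day 1 lungs, against 11.2, 17.6 and 24.1 CPM in air day 1 lungs. It gave log2 fold changes of 0.05, 0.10 and -0.00 at days 1, 7 and 27, each with an SE of 0.14 or more. Drc1 and Drc7, subunits of the nexin-dynein regulatory complex, lay between -0.15 and 0.08.

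The radial spoke proteins, which carry signals from the central apparatus to the dynein arms, lay mostly below 0 at days 1 and 27, with 4 of 5 members below on each, and above 0 at day 7, with 4 of 5 above. None passed the test. Rsph1, of the spoke head, ran from 5.38 through 15.0 to 18.1 CPM in exposed day 27 lungs, against 11.2, 16.6 and 22.5 CPM in air day 27 lungs, a log2 fold change of -0.29 (SE 0.22, adjusted p 0.419). Rsph9, also of the spoke head, ran from 4.86 through 13.3 to 14.7 CPM in exposed day 27 lungs, against 13.1, 13.9 and 15.8 CPM in air day 27 lungs, a log2 fold change of -0.30 (SE 0.19, adjusted p 0.317). In both genes the low end came from exposed libraries 3 and 7. Without these 2 libraries Rsph1 gave -0.06 and Rsph9 -0.05, and 3 of the 5 spoke proteins lay below 0. Rsph4a and Rsph10b, the other spoke head members, gave 0.06 and -0.09 at day 27.

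The 15 Cfap identifiers cover unlike structures. Cfap43 and Cfap44, which tether an inner dynein arm, gave 0.12 (SE 0.12) and 0.34 (SE 0.16) at day 1, with adjusted p of 0.823 and 0.577. Cfap20, of the junction inside the doublet, ran from 45.8 through 48.2 to 54.3 CPM in exposed day 1 lungs, against 47.3, 52.6 and 56.3 CPM in air day 1 lungs, and its -0.10 (SE 0.04, adjusted p 0.522) did not pass. Cfap126, needed for cilia positioning in mice, gave -0.22 (SE 0.10, adjusted p 0.536) at day 1 and -0.32 (SE 0.20, adjusted p 0.306) at day 27. At day 7 the differences furthest above 0 among the tested Cfap genes were those of Cfap53, a protein inside the doublets, at 0.16 (SE 0.15, adjusted p 0.807), and of Cfap61, linked to the radial spokes, at 0.15 (SE 0.21, adjusted p 0.885).

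Cfap46, Cfap54, Cfap74 and Cfap221 form a projection of the central apparatus in the alga Chlamydomonas. Cfap54 ran from 1.13 through 2.84 to 3.82 CPM in exposed day 1 lungs, against 1.33, 1.94 and 2.50 CPM in air day 1 lungs, with 7 of 8 exposed libraries above the air mean and a log2 fold change of 0.51 (SE 0.21, adjusted p 0.496). The 2 identifiers of Cfap46 went opposite ways at day 1, at 0.51 (SE 0.22, adjusted p 0.547) for ENSRNOG00000027374 and -0.46 (SE 0.18, adjusted p 0.470) for ENSRNOG00000005953. Their sum averaged 6.58 ± 1.94 CPM in exposed and 6.20 ± 1.37 CPM in air day 1 lungs (SD over 8 libraries each). Of that sum, ENSRNOG00000005953 took 36.2% ± 8.47 in exposed and 51.4% ± 2.33 in air day 1 lungs. Since counting can divide reads between identifiers of the same gene, the single values of Cfap46 are uncertain.

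Tektins form filaments inside the doublets. At day 27 all 5 lay below 0 in exposed lungs, with log2 fold changes from -0.27 to -0.09, and none passed the test. All 5 stayed below 0 in the 26 alternatives that left out at most 1 library, but without exposed libraries 3 and 7 Tekt1 gave 0.08 and Tekt4 -0.03, with Tekt2 at -0.12, Tekt3 at -0.18 and Tekt5 at -0.01. Tekt2 ran from 9.02 through 11.4 to 14.7 CPM in exposed day 27 lungs, against 10.9, 13.4 and 16.6 CPM in air day 27 lungs, a log2 fold change of -0.23 (SE 0.11, adjusted p 0.207). Tekt3 ran from 3.04 through 3.39 to 4.69 CPM in exposed day 27 lungs, against 3.56, 4.17 and 5.33 CPM in air day 27 lungs, a log2 fold change of -0.25 (SE 0.12, adjusted p 0.202). In each gene 7 of 8 exposed libraries lay below the air mean. Tekt1 and Tekt4 gave -0.15 (SE 0.19) and -0.27 (SE 0.24). At day 1 the tektins split into 2 above and 3 below 0, and at day 7 into 1 above and 4 below. Tekt3 at day 7 lay below the air mean in 8 of 8 exposed libraries, at -0.22 (SE 0.14, adjusted p 0.674).

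Tppp3, a protein that bundles microtubules and is widely used as a ciliated cell marker, was the single member called. It ran from 339 through 431 to 509 CPM in exposed day 27 lungs, against 475, 524 and 593 CPM in air day 27 lungs. Each of the 8 exposed libraries had less than the air mean, and the ranges overlapped between 475 and 509 CPM. The means were 435 ± 56.7 CPM in exposed lungs (SD, n = 8) and 535 ± 46.0 CPM in air lungs (SD, n = 7). The log2 fold change was -0.28 with an SE of 0.07 and an adjusted p of 0.0373. At day 1 it was -0.13 (SE 0.07, adjusted p 0.645) and at day 7 -0.12 (SE 0.06, adjusted p 0.626). The call was lost with 1 surrogate variable (adjusted p 0.171) and with the closest pair summed (0.0616) or averaged (0.0644). It was also lost in 10 of 16 fits without 1 library, those without air libraries 3, 5, 6, 7 or 8 or exposed libraries 1, 3, 6, 7 or 8, with adjusted p of 0.0528 to 0.0817. The fold change stayed between -0.32 and -0.24 in these 26 alternatives, and was -0.22 (adjusted p 0.147) without exposed libraries 3 and 7.

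**Figure D2:**
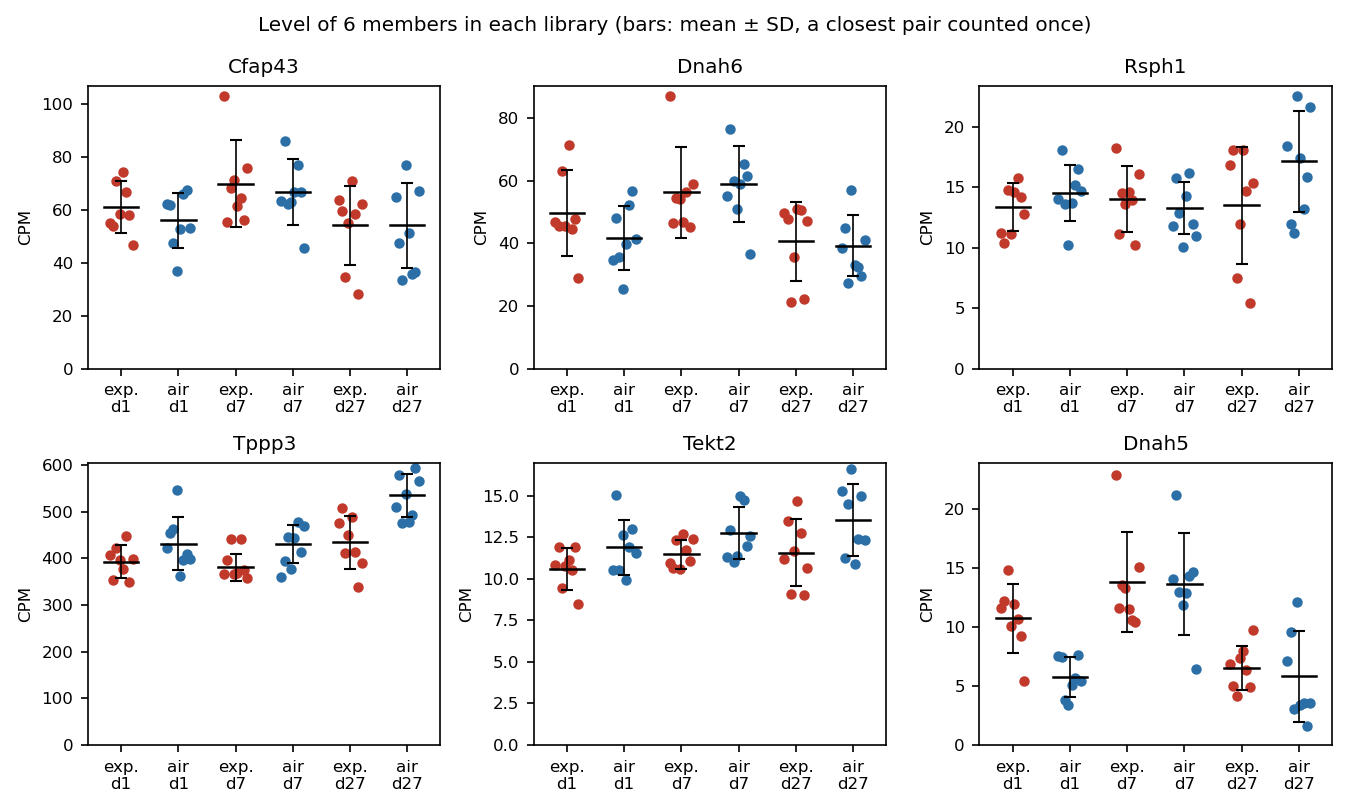
Level in CPM (y axes, from 0) of 6 members in each library of the 6 groups, exposed in red left of air in blue at days 1, 7 and 27 (exp. and d in the axis labels), with the mean ± SD in black and a closest pair of libraries counted once. Tppp3 at day 27 averaged 435 CPM in exposed and 535 CPM in air lungs, and Dnah5 at day 1 averaged 10.7 CPM in exposed and 5.75 CPM in air lungs; all ranges overlap.

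The exposure effects were also compared between days in 1 fit of all libraries. Of the members, 0 passed in each of the 3 contrasts, against 0% of 14852 genes for day 7 against day 1, 0.0202% for day 27 against day 7 and 0.498% for day 27 against day 1. DESeq2 also called 0 members. At an unadjusted p under 0.05, edgeR gave 2 members for day 7 against day 1, Dnah5 and ENSRNOG00000005953 of Cfap46, beside 7.5% of all genes, and 0 for the other contrasts, beside 14.9% and 14.6%. For Tppp3 the effect at day 27 minus that at day 1 was -0.15 (SE 0.10, adjusted p 0.524).

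Between libraries of the same group the members moved together. After the mean of its group had been taken from each gene's log2 CPM, the median correlation over the 741 pairs of members was 0.61 across 48 libraries. Of the pairs, 92.58% lay above 0 and 60.05% above 0.5, while over all 14919 genes of at least the same level the median was -0.00039 and 2.195% lay above 0.5. The points share library preparation, depth and dissected tissue. A single component held 58.34% of the members' variance and the next 11.84%. Members also varied more than most genes, with a median SD within groups of 0.36 on the log2 scale against 0.17 for all genes. In 17 libraries at least 30 of the 39 members lay above their group means, and in 9 libraries at most 9 did.

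**Figure D3:**
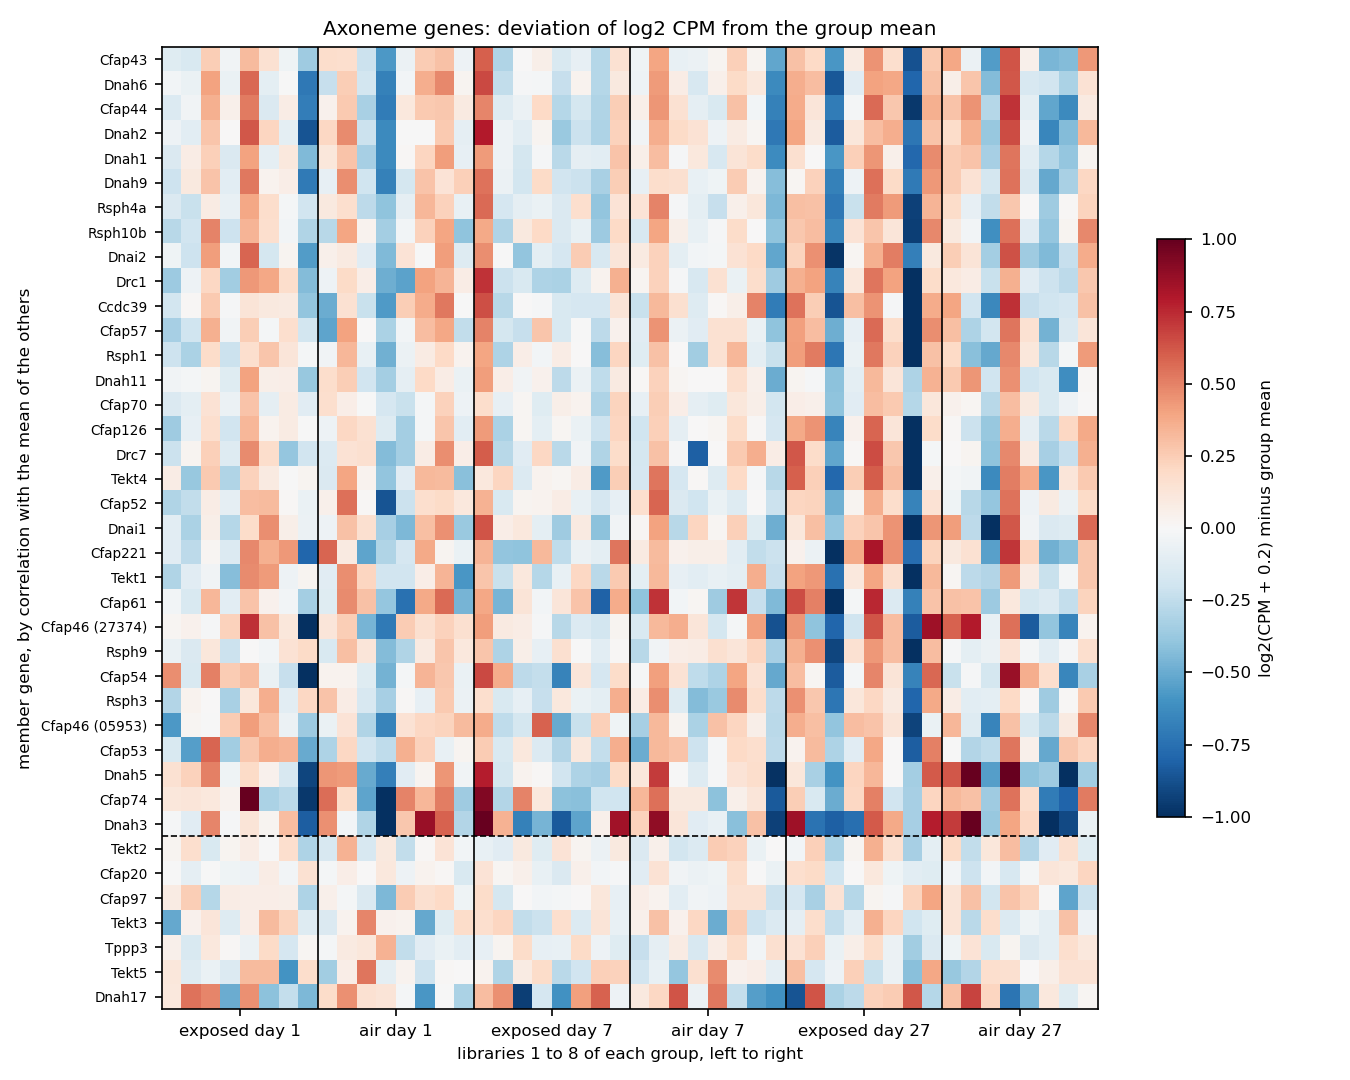
Deviation of log2(CPM + 0.2) from the group mean (colour, red above and blue below) for each member (rows, ordered by how closely they follow the rest) in each library (columns, 1 to 8 in each group). The 32 members above the dashed line change colour together from library to library, and exposed day 27 libraries 3 and 7 are blue almost throughout.

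The members' mean log2 CPM per library ran from 3.14 through 3.47 to 3.84 in exposed day 1 lungs, against 3.01, 3.41 and 3.70 in air day 1 lungs. At day 7 it ran from 3.47 through 3.60 to 4.08 in exposed lungs, against 3.25, 3.65 and 3.98 in air lungs. At day 27 it ran from 2.65 through 3.54 to 3.78 in exposed lungs, against 3.14, 3.46 and 3.86 in air lungs. Within a group the level spanned a 1.53- to 2.18-fold range, and the exposed and air ranges overlapped at every day. The widest range was that of the exposed day 27 group, in which libraries 7 and 3 stood 0.71 and 0.60 below the group mean with 2 and 1 of 39 members above it. Without these 2 libraries the median correlation in that group was 0.35, against 0.82 with them. In the other groups it was 0.50 in exposed day 1, 0.54 in air day 1, 0.55 in exposed day 7, 0.59 in air day 7 and 0.59 in air day 27 lungs. The correlation of the member level with log2 library total was -0.11.

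**Figure D4:**
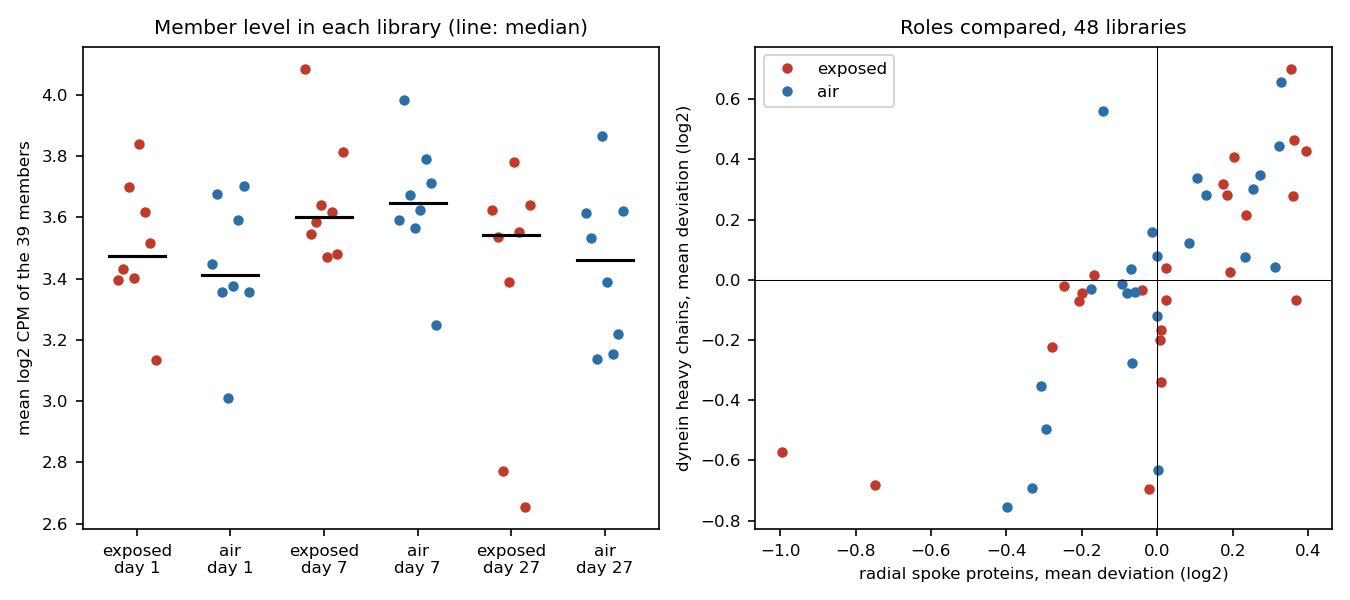
Left, the mean log2 CPM of the 39 members in each library, exposed left of air at each day, with the group median as a line; 2 exposed day 27 libraries lie at 2.65 and 2.77, below all others. Right, the mean deviation from group means of the 7 dynein heavy chains (y axis, log2) against that of the 5 radial spoke proteins (x axis, log2) in 48 libraries, for which r is 0.72.

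The members that followed the rest most closely were Cfap43, at r 0.95 with the mean of the other 38, Dnah6 at 0.95 and Cfap44 at 0.93. Each of these 3 stayed at 0.89 or more within all 6 groups. Rsph4a and Rsph10b reached 0.91 and 0.90, Dnai2 and Drc1 0.88 each, and Tekt4 and Tekt1 0.80 and 0.78. The mean deviations of the role groups, taken over all members of a role, were correlated at 0.84 between inner and outer arm heavy chains, 0.92 between the nexin-dynein group and the radial spokes and 0.87 between radial spokes and tektins. A group mean can hide its single members, and the median correlation among the 5 tektins was 0.21. The 8 heavy chains correlated at 0.88 with the Cfap group, 0.67 with the radial spokes, 0.47 with the tektins and 0.805 with all other members. Without Dnah17 the value with the spokes was 0.72. Members with more counts were more closely correlated. The median correlation was 0.71 among the 22 members with a mean of at least 10 CPM and 0.47 among the 17 below it.

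A gap separated 32 members at r of 0.65 or more from 7 at 0.43 or less. The 7 were Tekt2 (0.43), Cfap20 (0.24), Cfap97 (0.23), Tekt3 (0.16), Tppp3 (0.13), Tekt5 (0.12) and Dnah17 (-0.01), and the division was drawn after the values were seen. Tppp3 and Cfap20 were among the members with many counts, at means of 433.5 and 50.3 CPM. Their SD within groups was low, at 0.15 and 0.11 on the log2 scale, and they correlated at 0.48 with each other. The 7 did not move together as a set, with a median correlation among them of 0.01 and single pairs from -0.53 to 0.48. Tppp3 followed the rest at 0.68 in exposed day 27 lungs and at -0.54 in air day 1 lungs. In exposed day 27 library 7, where the members' level was lowest, Tppp3 stood at 339 CPM, the lowest of its group.

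**Figure D5:**
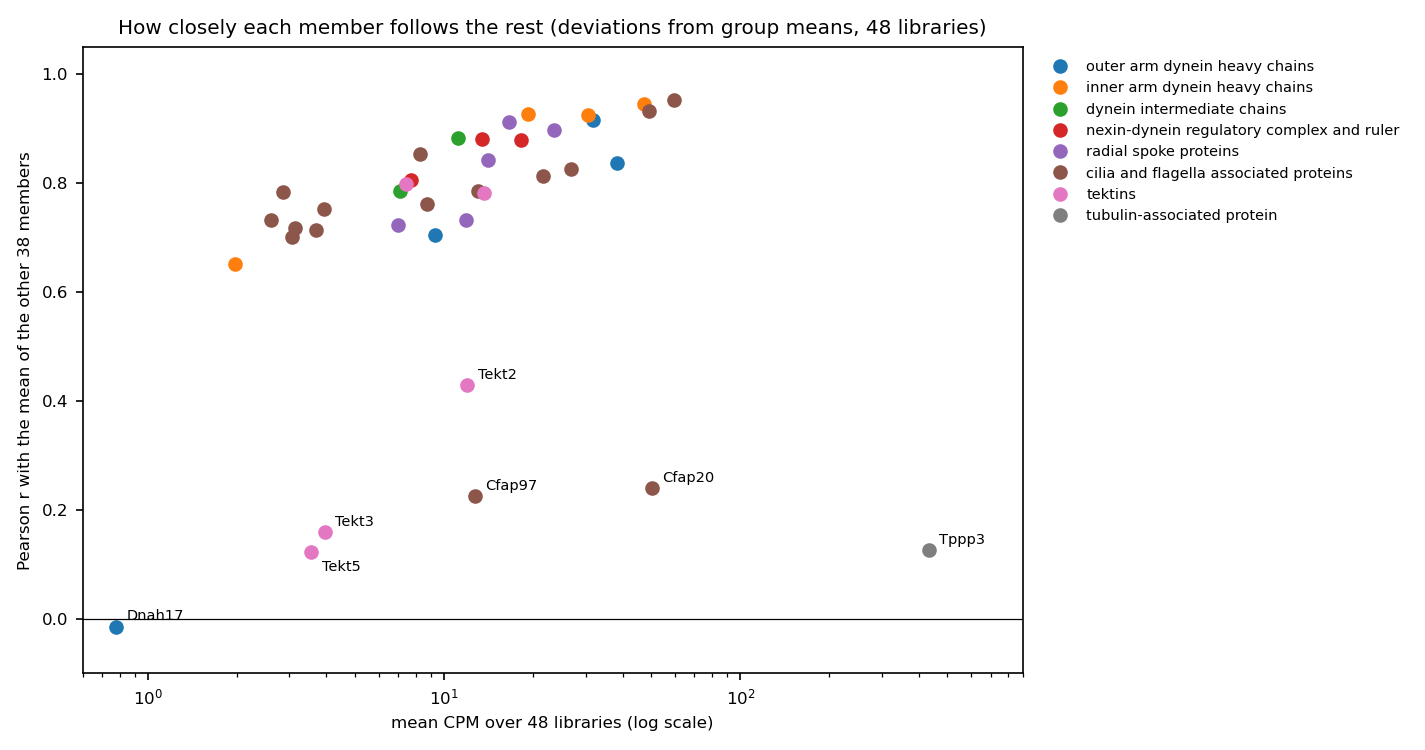
Pearson r of each member with the mean of the other 38, from deviations from group means over 48 libraries (y axis), against its mean CPM on a log scale (x axis), coloured by role. The 7 labelled members lie at 0.43 or below, among them Tppp3 at 433.5 CPM and Cfap20 at 50.3 CPM.

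The promoters of the 3 closest followers are shown because these members move together most. They come from RefSeq, build GRCr8, and hold the 250 bases before the annotated start on the gene's strand, the last base being next to the start. Cfap43 lies at chr1:256653817-256654066 on the minus strand, Dnah6 at chr4:106842365-106842614 on the minus strand and Cfap44 at chr11:69789906-69790155 on the minus strand. Capitals mark GTTGC, an arm of the X-box bound by RFX factors, and in Dnah6 and Cfap44 the stretch from GTTGC to its reverse complement GCAAC.
Cfap43: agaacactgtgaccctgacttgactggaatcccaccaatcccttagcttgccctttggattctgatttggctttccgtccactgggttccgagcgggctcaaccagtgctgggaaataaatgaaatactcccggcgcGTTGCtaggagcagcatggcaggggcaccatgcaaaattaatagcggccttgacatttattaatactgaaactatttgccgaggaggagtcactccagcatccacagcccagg
Dnah6: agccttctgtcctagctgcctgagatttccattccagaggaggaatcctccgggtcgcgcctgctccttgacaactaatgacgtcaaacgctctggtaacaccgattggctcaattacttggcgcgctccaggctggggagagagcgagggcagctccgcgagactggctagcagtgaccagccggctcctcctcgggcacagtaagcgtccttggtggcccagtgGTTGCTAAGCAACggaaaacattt
Cfap44: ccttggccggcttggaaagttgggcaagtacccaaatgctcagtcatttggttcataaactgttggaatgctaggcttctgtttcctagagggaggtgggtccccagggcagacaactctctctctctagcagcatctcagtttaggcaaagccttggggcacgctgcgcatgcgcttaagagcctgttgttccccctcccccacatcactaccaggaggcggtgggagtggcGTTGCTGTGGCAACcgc

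RefSeq promoters were found for 31 of the 38 member names, all but Cfap52, Cfap53, Dnah3, Rsph1, Rsph4a, Tekt5 and Tppp3. Taking the first start of each gene, GTTGC on either strand was in 74.2% of the members' promoters, against 29.6% of those of 27457 genes. Both arms in opposite directions with 2 to 4 bases between them were in 16.1% of members, namely Dnah6, Cfap44, Dnai2, Tekt2 and Tekt4, against 0.35% of all genes. These 2 motifs were added after the promoters had been seen. Of the motifs listed earlier, the single-arm site GTTGCC, which contains GTTGC, was in 29% of members and 9.9% of all genes, the forkhead core TGTTTAC in 6.45% and 3.25%, the GC box GGGCGG in 35.5% and 32.4%, and CCAAT in 32.3% and 34.3%. Only 1 strict form of the full X-box was searched, and it was in 0 members and 0.248% of all genes. The paired arms of Dnah6, Cfap44, Dnai2, Tekt2 and Tekt4 did not match that form. This 0 therefore does not mean that members lack sites with both arms. Tekt2, which follows the rest at 0.43, holds the paired arms while Cfap43, which follows at 0.95, does not.

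Genes outside the name rule that were listed for motile cilia, their regulation or primary cilia varied with the members to unlike degrees. The mean deviation of 30 other axonemal genes correlated with that of the members at 0.98, of 13 dynein arm assembly factors at 0.94 and of 27 intraflagellar transport genes at 0.91. For 11 genes listed as regulators of multiciliated cells it was 0.73 and for 17 primary cilium and basal body genes 0.77. These are values of list means, and single genes followed less closely, at a median r with the members of 0.79 for the other axonemal genes, 0.77 for the assembly factors, 0.49 for intraflagellar transport, 0.39 for the primary cilium and 0.25 for the regulators. By edgeR, 0 genes of these 5 lists were called at any day. At an unadjusted p under 0.05 and day 27, 8 of the 98 tested lay higher and 1 lower in exposed lungs, which is 8.16% and 1.02% beside 12.4% and 14.3% of all genes. Of the 8, 5 were primary cilium genes. By the synonyms in RefSeq, 20 identifiers with a mean of at least 0.5 CPM carry older names of genes whose present names fit the rule. Examples are Wdr63 (now Dnai3) and Lrrc48 (now Drc3), and older names missing from those synonyms would not be found. Of the 19 tested 0 were called by edgeR, with 1 lower at an unadjusted p under 0.05 at day 27. Their median log2 fold change at day 27 was -0.12 with 14 of 19 below 0, beside 52% of all genes. Their values without exposed day 27 libraries 3 and 7, which were low in nearly all members, were not examined. Their level correlated with that of the members at 0.98 in exposed day 27 lungs and at 0.87 over 48 libraries. Of the 20, 3 are also among the 30 axonemal genes and 2 among the ciliated cell markers, and the other 15 gave 0.81 over 48 libraries.

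Among 13418 other named genes, the 12 whose deviations were most like the members' mean were Ccdc108, Ak9, Cdhr3, Ttc21a, Hydin, Vwa3a, Rgs22, Wdr66, Wdr63, Spag6, Adam8 and Spata18, at r from 0.96 for Ccdc108 to 0.91 for Spata18 over 48 libraries. None of them was called at any day, Hydin, of the central apparatus, giving 0.26 at day 1 (adjusted p 0.706) and 0.10 at day 27 (adjusted p 0.805). Members were left out of this ranking only by the names used here. It can therefore hold genes whose present names fit the rule, as Wdr63 (now Dnai3) does. The 5 most unlike were Acads, Zfyve21, Gdi2, Abca4 and St3gal5, at r from -0.63 for Acads to -0.60 for St3gal5.

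Other markers of ciliated cells, not taken by the name rule, varied with the members at 0.96. They are not all separate from the axoneme. Ccdc153 and Fam183b, under their present names Drc12 and Cfap144, fit the rule. At day 27, 2 of the 36 markers tested were lower in exposed lungs, against 3.33% of all genes, and 0 higher. The first was Tubb4b, a beta tubulin of cilia, at -0.17 (SE 0.05, adjusted p 0.0465, edgeR). The other was Elof1, a transcription elongation factor, at -0.38 (SE 0.10, adjusted p 0.0352, edgeR). Both are also expressed outside ciliated cells. Neither was called without exposed libraries 3 and 7, where 0 of 14313 genes passed, and the other alternatives were not followed for them. The summed level of that list was 1655 to 1953 CPM in exposed and 1853 to 2153 CPM in air day 27 lungs. Tuba1a, Ezr, Tubb4b and Aqp4, which other lung cells also express, held 80.6% of that sum, and the other 32 markers summed to 200.7 to 437.5 CPM in exposed and 309.3 to 492.3 CPM in air day 27 lungs. Club and secretory cell markers, from the other main airway cell type, correlated with the member level at 0.78, and their part in these results was not tested. Of 12 tested at day 27, 10 lay below 0 with a median of -0.37, 0 were called, and 2 were lower at an unadjusted p under 0.05. Their summed level ran from 4329 through a median of 9092 to 10060 CPM in exposed day 27 lungs, against 8907, 10000 and 12910 CPM in air day 27 lungs. In exposed day 27 lungs the level of these markers correlated with that of the members at 0.92. Their values without exposed libraries 3 and 7 were not examined. At day 1, 9 of 13 lay below 0 with a median of -0.10, 0 were called and 4 were lower at an unadjusted p under 0.05, with sums of 5455 to 6896 CPM in exposed and 6271 to 9169 CPM in air lungs. At day 7, 7 of 12 lay below 0 with a median of -0.02. Of these 12, 0 were called and 1 was lower at an unadjusted p under 0.05. The day 7 sums were 5672 to 8336 CPM in exposed and 6416 to 8413 CPM in air lungs. Over all genes, 52% lay below 0 at day 27, 49.1% at day 1 and 50.3% at day 7. The shares lower at an unadjusted p under 0.05 (edgeR) were 14.3%, 4.06% and 4.15% at those days. Alveolar type 2 and type 1 markers correlated at -0.30 each with the member level.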

How the data were processed

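RNA was taken from a piece of each lung and sequenced with a stranded mRNA kit, per the labels' protocols. The submitters' processing notes list cutadapt 3.4, STAR 2.6.1d and Salmon 1.10.1 with build Rnor_6.0; settings are not given in the sources used here. The authors deposited expected counts per gene, unnormalized, in a table for each day. A mean of 5.58% of a library's values was not whole (tolerance 1e-06), so values were rounded.

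Each day was tested with edgeR 4.0.16 in R 4.3.3 (TMM, filterByExpr, robust quasi-likelihood F test) over all genes, with Benjamini-Hochberg adjustment and a threshold of 0.05. Differences between days came from 1 fit of 48 libraries. CPM and log2 CPM (prior count 2) used TMM factors over all libraries. Correlations are Pearson's and descriptive. Depth of about 12004516.5 counts leaves genes near 1 CPM with few counts, and p-values take each library as a separate animal.

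The members and lists were chosen with earlier results of these data known. Named genes are the 3 members with the highest level in each role, those with the smallest p or largest change at each day, and those that follow the rest most and least. Groupings said to be made after values were seen fall outside that rule. Alternatives used DESeq2 1.42.0, limma-voom 3.58.1, sva 3.50.0, other factors, filters and covariates, merged pairs and each library left out. Identifiers carry no coordinates because the reference table is of build GRCr8. The steps were tested on simulated data.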

Additional observations from a re-analysis of the deposited data

Results flagged for a closer look

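Of 240 groups of 8 values examined, 14 held a library far from the rest of its group by Dixon's criterion at the 95% level, and chance gives about 1 in 20. Of the 14, 10 fell in exposed day 7 library 1, where the value was the highest of the group each time. There the summed level of the 39 members was 1304 CPM, with 1113 CPM in the next library. Among single members of that library, Dnah6 stood at 86.95 CPM, Cfap43 at 102.9 CPM, Dnah11 at 60.1 CPM, Dnah2 at 37.96 CPM, Ccdc39 at 31.49 CPM and Dnah5 at 22.86 CPM. Cfap52 stood at 17.58 CPM there, Dnai1 at 11.27 CPM and ENSRNOG00000027374 of Cfap46 at 6.633 CPM. The 9 members vary together, so these flags are not separate events.

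The other 4 flags were in 4 libraries. Cfap74 stood at 6.446 CPM in exposed day 1 library 5, with 2.967 CPM in the next. Cfap52 stood at 19.04 CPM in air day 7 library 2, with 14.22 CPM in the next. Dnah11 stood at 32.87 CPM in air day 7 library 8, the lowest of its group, with 46.44 CPM in the next. Tekt5 stood at 4.718 CPM in air day 1 library 3, with 3.358 CPM in the next.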

How the results depend on the processing

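Members called at day 1 numbered 1 with DESeq2 (Dnah5) in place of 0, and 0 to 1 with each library left out in turn. Those called at day 27 numbered 0 with 1 surrogate variable, with the closest pairs summed and with the closest pairs averaged, in place of 1, and 0 to 1 with each library left out. At day 7 and between days the number was 0 under every alternative run. Fold changes were followed for 15 pairs of a member and a day, those with the smallest p or largest change, and none turned under 10 alternatives or with a library left out; the calls they lost or gained are those of Tppp3 and Dnah5 given above. Fold changes near 0 were not followed. Without exposed libraries 3 and 7, an alternative chosen after seeing the data, 0 members were called at day 27 in place of 1, and their median log2 fold change was 0.11 in place of -0.07. The median correlation between members was 0.576 to 0.697 under its alternatives, and in exposed day 27 lungs it was 0.352 without libraries 3 and 7, in place of 0.819. Calls over all genes at day 27, 783 as reported, were 1613 with DESeq2, 2227 with all libraries in 1 fit, 474 with no filter, 71 with 1 surrogate variable, 31 with the pairs summed and 5 with them averaged, and 9 to 1926 with each library left out; the cause was not tested. At day 1, where 4 were called, the count was 46 with DESeq2 and 0 to 17 with each library left out. No paired analysis was possible because the animal numbers in the labels differ between the groups.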

Other observations

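Tppp3 varied with another set of genes than the rest. Among 13456 named genes, the 3 most like it over 48 libraries were Zdhhc1 at r 0.71, Ckb at 0.68 and Cyp4b1 at 0.67, listed after the values were seen. Ckb is the brain-type creatine kinase. Cyp4b1 is also among the 13 club cell markers. Tppp3 correlated at 0.14 with the mean of these 13 and at 0.14 with that of the alveolar type 2 markers.

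The division of Cfap46 counts between its 2 identifiers varied with the balance of the dynein heavy chains. Over 48 libraries, as deviations from group means, the share on ENSRNOG00000005953 correlated with the heavy chain balance at -0.665. That share ran from 26.2% to 55.3% in exposed day 1 lungs and from 48% to 54.4% in air day 1 lungs. At day 7 its means were 38.4% ± 5.95 in exposed and 37.05% ± 6.70 in air lungs, and at day 27 they were 56.9% ± 9.31 in exposed and 54.1% ± 10.95 in air lungs (SD over 8 libraries each).

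Spata18, listed here as a male germ cell marker, had a mean of 20 CPM and followed the axoneme genes at 0.91, while the other 9 genes of its list were near 0.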
